A study of Mus musculus with 16 samples.

Results

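Eph receptors and their ephrin ligands, and the semaphorins with their plexin and neuropilin receptors, were examined as one set of guidance genes in hair follicle stem cell (HFSC) organoids. The members were chosen by gene symbol, with earlier results of these data known. The symbols were those of the EphA and EphB receptors, the ephrin-A and ephrin-B ligands, the semaphorins, the plexins and the neuropilins. The choice left 51 genes of the 32989 identifiers in the count table. Of these, 22 were Eph receptors or ephrins and 29 were semaphorins, plexins or neuropilins. The annotation held 53 such symbols, and Plxnb3 and Sema3g were not analysed here.

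The cells came from 4 wild-type C57BL/6J mice, with epidermal cells of both sexes taken in telogen, the resting phase of the hair cycle. The 3D–3C organoid culture lasted 2 weeks and kept the cells in Matrigel and keratinocyte growth medium, with VEGF, FGF2 and the kinase inhibitor Y27632 added. Cultures were left untreated or were treated for 72 h with the acetylated polyamine N1-acetylspermidine (N1-AcSpd). Integrin α6+/CD34− progenitors and α6+/CD34+ HFSCs were then sorted from each, which gave 4 groups of 4 libraries with every mouse represented once in every group. VEGF, FGF2 and Y27632 were present in all 4 groups, so no library shows these genes without them, and the organoids hold epithelial cells away from the dermis, nerves and vessels that send guidance signals in skin. Expression was measured by 3′ RNA-seq as unique molecular identifier (UMI) counts per gene.

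Ephrins and Eph receptors are both held at the cell surface and meet at contacts between neighbouring cells, where they steer repulsion, adhesion and boundary formation. Ephrin-A ligands are tethered by a lipid anchor and mostly bind EphA receptors, while ephrin-B ligands span the membrane and mostly bind EphB receptors. Semaphorins are secreted or membrane-bound cues read by plexins, which act on small GTPases, and class 3 semaphorins mostly need a neuropilin as coreceptor. In epidermis, Eph signalling is known for its part in keratinocyte sorting, differentiation and control of proliferation.

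The 5 members that were called in both cell type comparisons, with a log2 fold change beyond 0.5 in each and a mean count over 50, are shown first by the reference sequence around their transcription start, 250 bases before to 50 bases after, from RefSeq on build GRCm38.p6. These windows are given because the results below turn on these genes, of which Efna1, Ephb4 and Ephb6 were higher and Epha2 and Epha4 lower in HFSCs. Capitals mark matches, on either strand, to the letters TATAAA of the TATA box, CCAAT of the CCAAT box, GGGCGG of the GC box, TGANTCA of the AP-1 site or CACGTG of the E-box. For Efna1, the first of its listed starts is printed.
Efna1 promoter, chr3:89280902-89281201, minus strand: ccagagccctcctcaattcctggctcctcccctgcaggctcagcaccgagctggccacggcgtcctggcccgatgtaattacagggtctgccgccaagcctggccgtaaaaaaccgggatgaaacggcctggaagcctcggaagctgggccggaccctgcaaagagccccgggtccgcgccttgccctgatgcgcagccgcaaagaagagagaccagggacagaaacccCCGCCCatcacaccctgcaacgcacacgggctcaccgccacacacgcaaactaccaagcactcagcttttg
Epha2 promoter, chr4:141300971-141301270, plus strand: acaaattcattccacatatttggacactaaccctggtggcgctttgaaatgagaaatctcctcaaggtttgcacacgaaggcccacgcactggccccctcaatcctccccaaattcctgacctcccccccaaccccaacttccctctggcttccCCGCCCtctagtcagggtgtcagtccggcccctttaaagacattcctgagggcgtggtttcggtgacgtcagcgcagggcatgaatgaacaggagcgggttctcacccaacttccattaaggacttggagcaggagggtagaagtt
Epha4 promoter, chr1:77515039-77515338, minus strand: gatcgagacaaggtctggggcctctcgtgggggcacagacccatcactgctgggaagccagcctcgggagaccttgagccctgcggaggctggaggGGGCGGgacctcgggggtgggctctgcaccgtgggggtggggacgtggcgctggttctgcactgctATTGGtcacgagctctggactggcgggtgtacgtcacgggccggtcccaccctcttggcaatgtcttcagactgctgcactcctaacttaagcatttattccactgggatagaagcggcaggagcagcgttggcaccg
Ephb4 promoter, chr5:137349859-137350158, plus strand: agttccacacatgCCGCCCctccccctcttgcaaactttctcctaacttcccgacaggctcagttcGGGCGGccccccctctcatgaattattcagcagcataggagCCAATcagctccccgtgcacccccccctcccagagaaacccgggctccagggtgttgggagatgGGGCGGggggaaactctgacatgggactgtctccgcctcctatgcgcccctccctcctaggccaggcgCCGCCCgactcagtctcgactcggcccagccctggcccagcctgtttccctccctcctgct
Ephb6 promoter, chr6:41605261-41605560, plus strand: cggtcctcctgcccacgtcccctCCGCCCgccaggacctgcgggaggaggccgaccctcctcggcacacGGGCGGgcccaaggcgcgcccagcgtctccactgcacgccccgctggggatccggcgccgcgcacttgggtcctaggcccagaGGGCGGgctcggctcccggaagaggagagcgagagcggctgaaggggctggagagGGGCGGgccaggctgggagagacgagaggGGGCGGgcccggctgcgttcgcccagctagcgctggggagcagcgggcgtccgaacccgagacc

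The Ephb6 window held 5 GC boxes and 34 CpG dinucleotides at a GC content of 76.3%. The Epha2 window held 1 GC box and 10 CpG dinucleotides at 54.7%. Ephb4 held 4 GC boxes and 1 CCAAT box, Epha4 held 1 GC box and 1 CCAAT box, and Efna1 held 1 GC box. No match overlapped that of another motif. A promoter sequence was listed for 45 of the 51 members, with 59 windows in all, and 76.3% of them held a GC box against 35.7% of all 32851 windows of the same length. The TATA box stood in 1.69% of the member windows and 13.6% of all windows, the CCAAT box in 33.9% and 37.4%, the AP-1 site in 5.08% and 7.81%, and the E-box in 6.78% and 7.15%. The median GC content was 64.3% in member windows and 52.7% in all windows, and its part in these shares was not tested. These matches describe letters in the window and say nothing on which factor binds there.

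Library totals ran from 15480075 to 29074855 UMIs. CD34, the surface marker of the sort, was at 2.87 to 3.65 CPM (UMI counts per 1000000 of the library after TMM scaling) in the progenitor libraries and at 43.4 to 64.0 CPM in the HFSC libraries, with no overlap. The summed level of 9 HFSC markers, which include CD34 itself, was 125.2 to 163.1 CPM in progenitors and 420.1 to 676.3 CPM in HFSCs. Krt15 gave the widest gap, at 27.25 to 42.69 CPM in progenitors and 238.4 to 446.5 CPM in HFSCs. Itga6 went the other way, at 52.29 to 68.81 CPM in progenitors and 45.7 to 52.94 CPM in HFSCs. Over both conditions, the ranges of Lgr5, Tcf7l1 and Lrig1 overlapped between the cell types. The sum of 10 epidermal differentiation markers, which include Krt10, Ivl and Krtdap, was 1142 to 1791 CPM in progenitors and 314.5 to 431.1 CPM in HFSCs. Every cell type difference below was measured across the same sort that separated these differentiation markers, and their part in it was not tested. The 8 fibroblast markers summed to 2.84 to 11.99 CPM in progenitors and 0.704 to 2.80 CPM in HFSCs. The 8 Schwann cell and neuron markers summed to 308 to 328.2 CPM in progenitors and 254.2 to 276.1 CPM in HFSCs, with Mbp giving 250.4 to 306.9 CPM over all libraries. Melanocyte markers (6 of 8 in the table) stood at 28 to 36.1 CPM with Tyrp1 at no more than 0.071, immune markers (7 of 8) at 3.53 to 8.095 CPM and Merkel cell markers (4 of 6) at no more than 0.766 CPM. The endothelial list (5 of 8) summed to 1696 to 2062 CPM, nearly all of it from Pecam1, while Tek, Tie1 and Vwf reached at most 0.565 CPM. In sorted bulk samples, fewer cells of a type and less RNA per cell cannot be told apart.

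Of the 51 members, 37 reached a mean count of 5 over the 16 libraries and were tested. The 14 below it were Efnb3, Epha3, Epha7, Epha8, Ephb1, Nrp1, Plxnc1, Plxnd1, Sema3b, Sema4g, Sema6a, Sema6b, Sema6c and Sema7a, with 2 to 78 UMIs each over all libraries. Neuropilin-1 (Nrp1), a coreceptor for class 3 semaphorins and VEGF, had 20 UMIs over all libraries, with 6 libraries at 0. Epha3 and Epha8 were each detected with 2 UMIs in all. No difference was tested for these 14 genes.

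The first question was whether guidance genes differed between HFSCs and progenitors of the same organoids. In untreated cultures, the ephrin-A ligands were higher in the α6+/CD34+ HFSCs, while the receptors EphA2 and EphA4 were lower and EphB4 and EphB6 were higher. Of the 37 members tested, 15 passed an adjusted p of 0.05 (edgeR quasi-likelihood test with Benjamini-Hochberg adjustment over all genes), 10 of them higher and 5 lower in HFSCs. That is read against 32.1% of all 19049 genes called, with 16.1% higher and 16.1% lower. The median log2 fold change was -0.06 over the members tested and 0.02 over all genes tested. In N1-AcSpd cultures, 11 members passed, 8 higher and 3 lower, against 33.3% of all genes, with 16.5% higher and 16.8% lower. The 10 members Efna1, Efna2, Efna4, Efna5, Epha1, Epha2, Epha4, Ephb4, Ephb6 and Sema3c passed in both with the same sign, where 25.6% of all genes did. These comparisons use different libraries of the same 4 mice.

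**Figure D1:**
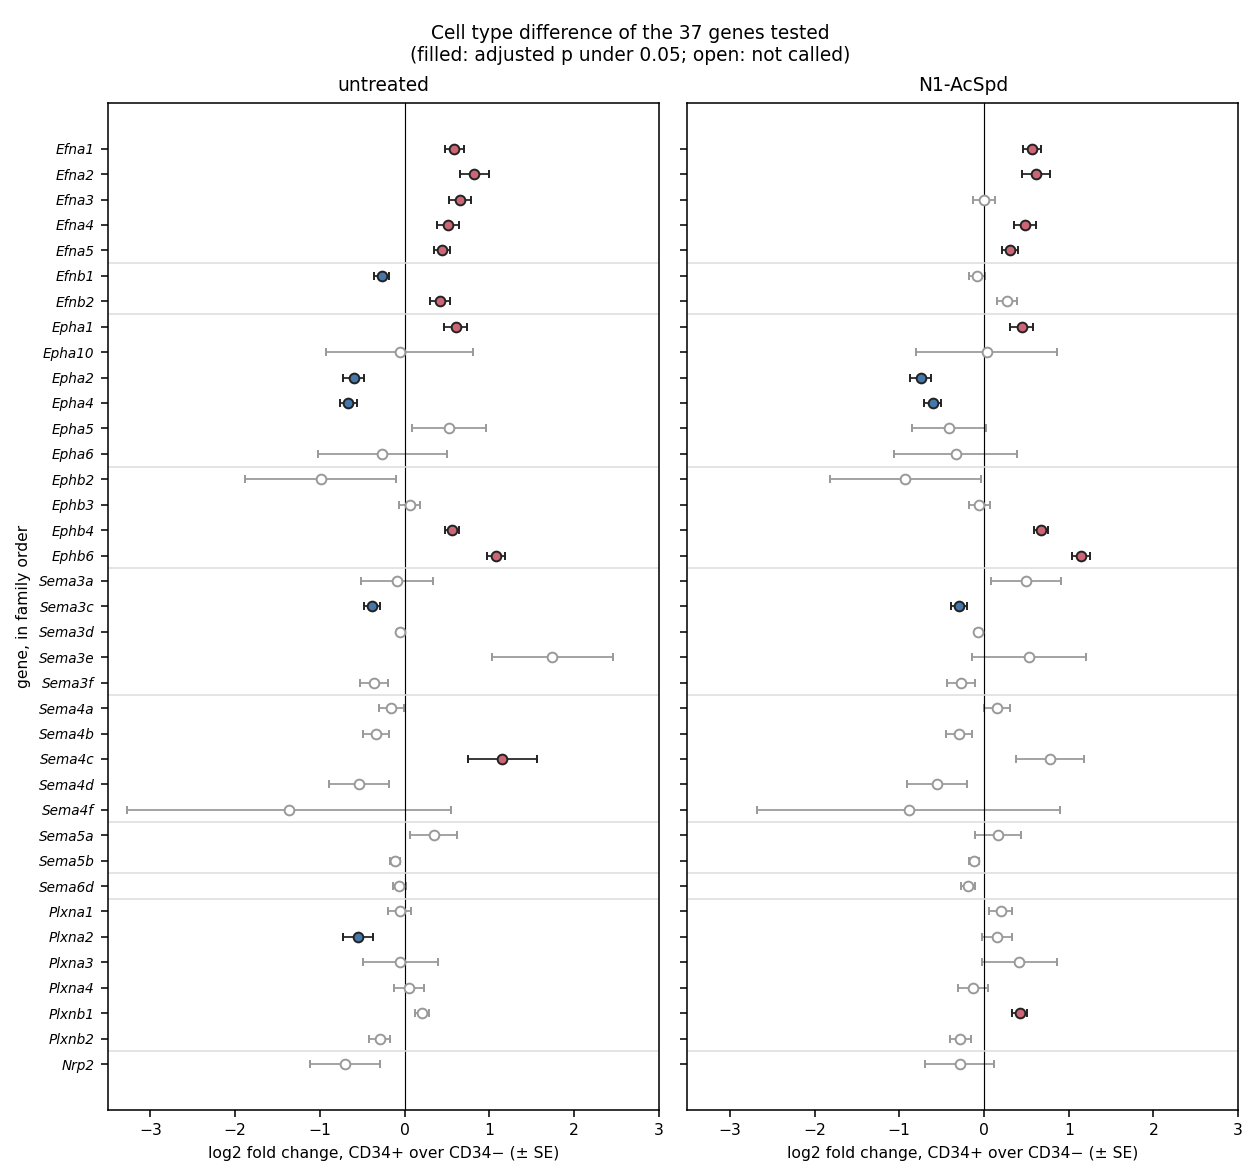
Cell type difference of the 37 members tested. Each point is the log2 fold change of CD34+ over CD34− cells with its SE, for untreated cultures on the left and N1-AcSpd cultures on the right, and filled points passed an adjusted p of 0.05. The filled points lie mostly among the ephrins and Eph receptors in the upper part, with 12 of 17 filled in untreated cultures. Among the semaphorins, plexins and neuropilins, 3 of 20 are filled. Of all genes, 32.1% were called in untreated cultures. Both sets hold members that overlap a gene with at least 50% of their count.

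The ephrins and Eph receptors made up most of these calls. Among them, 12 of 17 tested passed in untreated cultures (9 higher, 3 lower) and 9 of 17 in N1-AcSpd cultures (7 higher, 2 lower). Among the semaphorins, plexins and neuropilins, 3 of 20 passed in untreated cultures and 2 of 20 in N1-AcSpd cultures. Of all genes, 32.1% and 33.3% passed. The called Efna4, Epha1 and Ephb4 overlap a gene with at least 50% of their count, as do the uncalled Epha6, Plxna1, Sema3a, Sema3d and Sema5b. For Efna4, Epha1 and Ephb4 the counts of the 2 genes were equal in 0 of 16 libraries, and how many tags they share was not measured. The near-equal counts are those of Epha6, Plxna1, Sema3a, Sema3d and Sema5b. Low counts also limit some semaphorins and plexins, such as Sema4f, Sema3e and Plxna3. The difference between these shares was not tested.

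In untreated cultures, where 16.1% of all genes were called higher in HFSCs, all 5 ephrin-A ligands passed. All 5 were higher in HFSCs in 4 of 4 mice. Their median log2 fold change was 0.59, and the range ran from 0.45 for Efna5 to 0.82 for Efna2. In N1-AcSpd cultures, where 16.5% of all genes were called higher, 4 of 5 passed, again higher in HFSCs, with a median of 0.48. The gene that did not pass was Efna3.

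Efna1 encodes ephrin-A1, a ligand of EphA2 that is widely expressed in epithelia. Its gene lies at chr3:89271733-89281142 on the minus strand (GRCm38), close to Efna3 at chr3:89313899-89322965 and Efna4 at chr3:89333390-89338028. In untreated progenitors, Efna1 was at 38.1, 39.6, 35.0 and 38.2 CPM in mice 1 to 4. In untreated HFSCs, it was at 53.6, 56.25, 51.2 and 65.4 CPM. Every HFSC library was above every progenitor library, and the fold was 1.501 (log2 0.59 ± 0.11 SE, adjusted p = 0.00103). With N1-AcSpd, progenitors were at 32.3, 37.3, 31.3 and 37.1 CPM and HFSCs at 45.7, 51.7, 43.6 and 63.0 CPM. The groups did not overlap here either, with a log2 fold change of 0.56 ± 0.11 (adjusted p = 0.00115). Mouse 4 gave the highest HFSC value under both conditions.

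Epha2 encodes EphA2, a receptor found in differentiating keratinocytes that binds ephrin-A1, and lies at chr4:141301240-141329384 on the plus strand. It moved in the opposite direction to its ligand. Untreated progenitors had 9.07, 7.66, 9.05 and 8.57 CPM and untreated HFSCs 5.97, 5.70, 6.015 and 4.98 CPM, a log2 fold change of -0.60 ± 0.12 (adjusted p = 0.00198). With N1-AcSpd, progenitors had 9.775, 9.47, 9.88 and 9.59 CPM and HFSCs 5.90, 6.88, 6.19 and 4.05 CPM, a log2 fold change of -0.75 ± 0.12 (adjusted p = 0.000318). All HFSC libraries were below all progenitor libraries in both conditions.

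Epha4 encodes EphA4, which binds ligands of both ephrin classes, and lies at chr1:77367185-77515088 on the minus strand. Untreated progenitors had 8.38, 8.62, 7.055 and 9.33 CPM and untreated HFSCs 5.12, 5.70, 5.20 and 5.03 CPM, a log2 fold change of -0.66 ± 0.10 (adjusted p = 0.000249). With N1-AcSpd, progenitors had 7.01, 9.685, 7.03 and 7.95 CPM and HFSCs 5.31, 5.01, 5.275 and 5.22 CPM, a log2 fold change of -0.61 ± 0.10 (adjusted p = 0.000414). The HFSC libraries lay within a narrow band below all progenitor libraries, while the progenitor libraries were more spread.

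Ephb4, at chr5:137350109-137378669 on the plus strand, encodes the main receptor of ephrin-B2. Untreated progenitors had 7.18, 6.065, 8.01 and 8.34 CPM and untreated HFSCs 11.15, 11.35, 10.30 and 10.8 CPM, a log2 fold change of 0.56 ± 0.08 (adjusted p = 0.000214). With N1-AcSpd, progenitors had 6.31, 6.60, 6.23 and 7.05 CPM and HFSCs 11.40, 10.1, 10.1 and 10.04 CPM, a log2 fold change of 0.67 ± 0.08 (adjusted p = 3.6e-05). The groups did not overlap in either condition. The end of Ephb4 overlaps that of Zan on the opposite strand by 33 exon bases, and Zan had 4951 UMIs against 2931 for Ephb4, so tags from that stretch cannot be told apart without strand.

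Ephb6, at chr6:41605482-41620509 on the plus strand, encodes an Eph receptor whose kinase domain is inactive. It showed the largest called change among members with a mean count of at least 50. Untreated progenitors had 12.5, 12.6, 13.0 and 15.65 CPM and untreated HFSCs 28.95, 27.25, 26.2 and 31.5 CPM, a 2.12-fold difference (log2 1.084 ± 0.11, adjusted p = 4.24e-06). With N1-AcSpd, progenitors had 11.8, 10.9, 8.855 and 11.3 CPM and HFSCs 23.05, 23.7, 21.0 and 27.3 CPM, a 2.22-fold difference (log2 1.15 ± 0.11, adjusted p = 2.56e-06). The lowest HFSC library was above the highest progenitor library in both conditions. Calls for Efna1, Epha2, Epha4, Ephb4 and Ephb6 held in each of 20 fits that left out 1 library or 1 mouse. The log2 fold change of Ephb6 then lay between 1.02 and 1.16 in untreated and between 1.07 and 1.21 in N1-AcSpd cultures. Some of the 20 fits left out a library of the other condition. Those fits kept every library of the comparison and changed only the shared scaling, filter and spread, so they test a call less strictly.

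**Figure D2:**
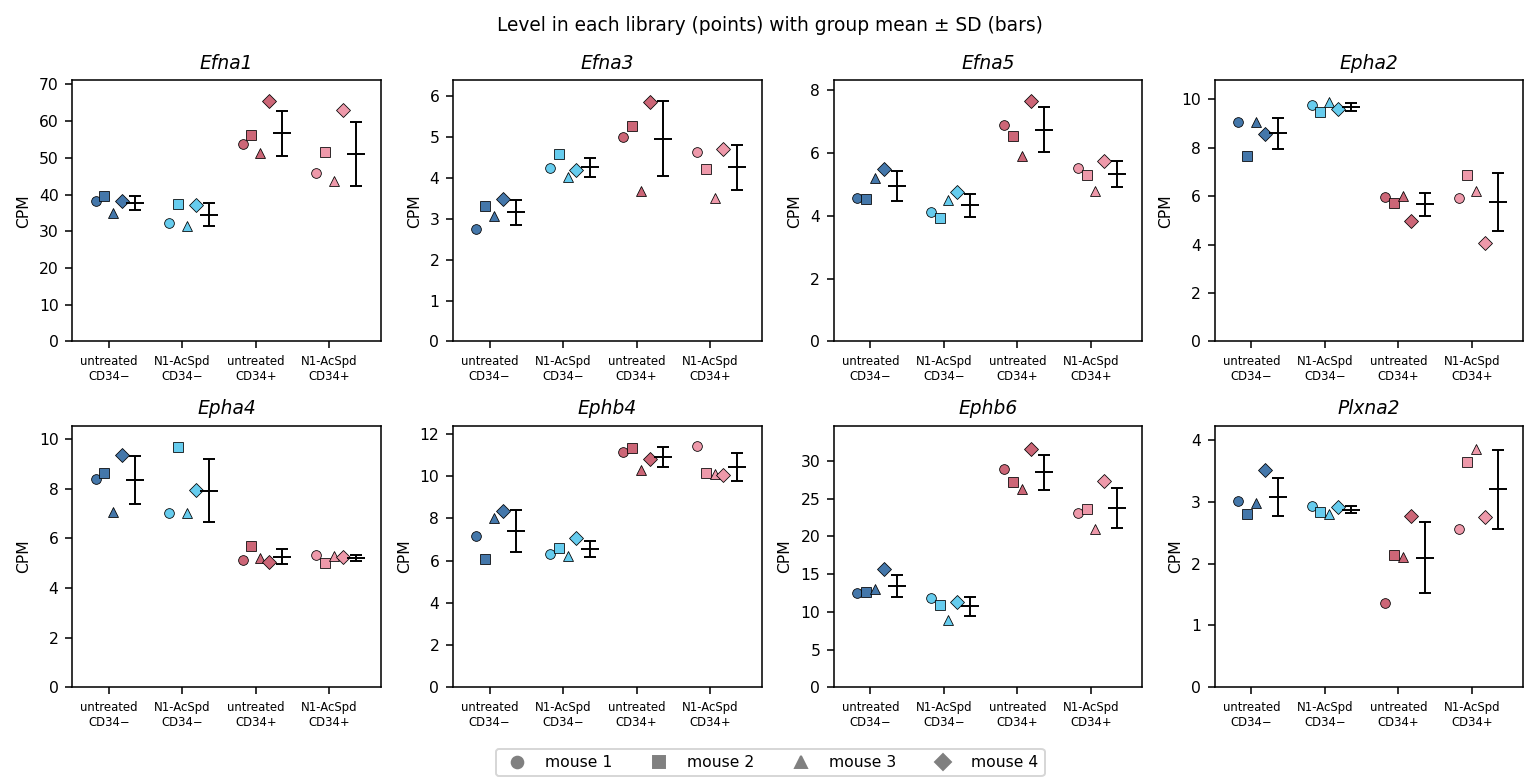
Level in CPM of 8 members in every library, with marker shape for the mouse and bars for the group mean ± SD. The untreated means ± SD in CD34− and CD34+ cells were 37.7 ± 1.95 and 56.6 ± 6.20 CPM for Efna1, and 13.4 ± 1.49 and 28.5 ± 2.32 CPM for Ephb6, while Epha2 and Epha4 stand lower in CD34+ cells.

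The other ephrin-A calls held in all 20 fits for Efna2, Efna3 and Efna5 in untreated cultures and less firmly elsewhere. Efna3 gave 0.65 ± 0.13 in untreated cultures (adjusted p = 0.00182) and 0.00 ± 0.13 with N1-AcSpd (adjusted p = 0.997). Efna2 had 0.736 to 0.992 CPM in untreated progenitors and 1.42 to 1.70 CPM in HFSCs (log2 0.82 ± 0.17, adjusted p = 0.00196). In N1-AcSpd cultures Efna2 gave 0.61 ± 0.17 (adjusted p = 0.0282). That call was lost in 6 of the 20 fits, those without N1-AcSpd progenitor library 2 or 3, HFSC library 2 or 4, or mouse 2 or 3 (adjusted p 0.0521 to 0.14), and with DESeq2 (adjusted p = 0.0753). Efna5 gave 0.45 ± 0.09 in untreated cultures (adjusted p = 0.00253). In N1-AcSpd cultures it gave 0.30 ± 0.09 (adjusted p = 0.0233), lost without progenitor library 1 or 2, HFSC library 4, or mouse 1 or 2 (adjusted p 0.0595 to 0.149). Efna4 gave 0.51 ± 0.13 and 0.48 ± 0.13 (adjusted p = 0.00737 and 0.0104), and both calls were lost without mouse 1 or mouse 4 (adjusted p 0.0644 to 0.0698 in untreated and 0.0747 to 0.1 in N1-AcSpd cultures). An antisense gene over the start of Efna4, 4731419I09Rik, had a count 66.9% the size of that of Efna4, with equal counts in 0 libraries.

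Ephrin-B ligands did not move as one. In untreated cultures Efnb2, a ligand of EphB4, was higher in HFSCs (log2 0.41 ± 0.12, adjusted p = 0.0159) and Efnb1 was lower (log2 -0.27 ± 0.09, adjusted p = 0.0394). In N1-AcSpd cultures the values were 0.27 ± 0.12 and -0.09 ± 0.09, and neither passed. The Efnb2 call was lost without progenitor library 3, HFSC library 3 or 4, or mouse 1 or 3 (adjusted p 0.0512 to 0.139). Within the span of Efnb2 on the same strand, E230020D15Rik had 430 UMIs against 1628 for Efnb2, with 0 exon bases shared. The Efnb1 call was lost without progenitor library 1, 3 or 4, HFSC library 2, 3 or 4, or mouse 1, 3 or 4 (adjusted p 0.0664 to 0.226), and its CPM ranges overlapped, 8.11 to 10.04 in progenitors and 7.37 to 8.13 in HFSCs.

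Of the other Eph receptors, Epha1, an epithelial EphA receptor, was higher in HFSCs with 0.60 ± 0.14 in untreated and 0.45 ± 0.14 in N1-AcSpd cultures (adjusted p = 0.00386 and 0.0212). The first call was lost without mouse 2 (adjusted p = 0.0571) and the second without N1-AcSpd progenitor library 1 or 3, HFSC library 4, or mouse 1, 2 or 4 (adjusted p 0.0568 to 0.0984). Epha1 overlaps the actin regulator gene Zyx on the opposite strand over 236 exon bases, and Zyx had 18071 UMIs against 920 for Epha1. Ephb3 gave 0.06 ± 0.12 in untreated cultures, with a 95% interval from -0.18 to 0.31, and -0.06 ± 0.12 with N1-AcSpd. Epha5, Epha6, Epha10 and Ephb2 were at 0 to 4.47 CPM and did not pass, with SEs of 0.43 to 0.89 on the log2 scale.

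Among the semaphorins, 2 of 13 tested passed in untreated cultures, beside 32.1% of all genes. Sema3c, a secreted class 3 semaphorin, was lower in HFSCs (12.7 to 15.3 CPM in progenitors and 9.65 to 12.4 CPM in HFSCs, log2 -0.39 ± 0.09, adjusted p = 0.00614). It gave -0.30 ± 0.09 with N1-AcSpd (adjusted p = 0.0256). The untreated call was lost without mouse 2 or 4 (adjusted p 0.0665 to 0.0756). The N1-AcSpd call was lost without progenitor library 3 or 4, HFSC library 1 or 2, or mouse 2, 3 or 4 (adjusted p 0.0542 to 0.146). Sema4c, a membrane-bound class 4 semaphorin that binds plexin-B2, was called higher in untreated HFSCs on 2 to 16 UMIs a library (log2 1.16 ± 0.40, adjusted p = 0.0414). That call was lost with the mouse as a block (adjusted p = 0.0555) and in 14 of the 20 fits (adjusted p 0.05 to 0.214). It held only without N1-AcSpd progenitor library 1 or 3, untreated HFSC library 2 or 3, or N1-AcSpd HFSC library 3 or 4. The N1-AcSpd libraries are not part of that comparison. On the opposite strand, D430040D24Rik overlaps Sema4c over 334 exon bases and had 28 UMIs against 104 for Sema4c. Sema3f gave -0.36 ± 0.16, Sema4b gave -0.34 ± 0.16 and Sema3e gave 1.74 ± 0.71, and none of them passed (adjusted p = 0.109, 0.122 and 0.0773). With the mouse as a block, Sema4b passed (adjusted p = 0.0423).

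Of 6 plexins tested, the semaphorin receptors, 1 passed in each condition and for different genes, beside 32.1% and 33.3% of all genes. Plxna2, a receptor used with neuropilins, was lower in untreated HFSCs (log2 -0.55 ± 0.18, adjusted p = 0.0306) and gave 0.16 ± 0.18 with N1-AcSpd (adjusted p = 0.58). The call was lost without progenitor library 1, 3 or 4, HFSC library 1, 2 or 3, or mouse 1, 2 or 3 (adjusted p 0.0518 to 0.105). Plxnb1, a receptor for Sema4d, was higher in HFSCs with N1-AcSpd (5.70 to 6.85 CPM in progenitors and 8.03 to 8.53 CPM in HFSCs, log2 0.42 ± 0.08, adjusted p = 0.00136), which held in all 20 fits. In untreated cultures Plxnb1 gave 0.20 ± 0.08 (adjusted p = 0.0791, and 0.0493 with the mouse as a block). Plxnb2 gave -0.30 ± 0.12 and -0.28 ± 0.12 (adjusted p = 0.0777 and 0.0929), lower in HFSCs of 4 of 4 mice in each. Nrp2, the neuropilin that was tested, gave -0.70 ± 0.41 and -0.29 ± 0.41 and did not pass. Sema5a, Sema6d, Sema4a, Sema4d, Sema4f, Sema3a, Plxna1, Plxna3 and Plxna4 did not pass in either comparison.

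The highest values among the semaphorins came from genes that share their counts. Sema3d had 23984 UMIs over all libraries, and Gm8925, a processed pseudogene within its span at chr5:12478866-12479628 on the opposite strand, had 23930, with equal counts in 12 of 16 libraries. Sema5b had 7925 UMIs and the pseudogene Gm5963, at chr16:35573321-35573556 on the opposite strand, had 7924. Epha6 and Gm4660, at chr16:60397920-60398322, both had 119, with equal counts in 16 of 16 libraries. None of these pseudogenes shares exon bases with its host. By blastn, Gm8925 was 96.5% identical to the ribosomal protein mRNA Rps6 over 763 aligned positions, Gm5963 was 92.3% identical to Rps21 over 248, and Gm4660 was 90.8% identical to Atp5g1, a subunit of ATP synthase, over 412. Stretches of 60 bases in the coding part are shown because they mark what such a tag can look like, with the mismatched bases in capitals, from the GENCODE vM21 transcripts on GRCm38.
Gm8925, from base 691 of its transcript: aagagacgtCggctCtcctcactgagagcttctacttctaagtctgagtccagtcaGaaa
Rps6, from base 774: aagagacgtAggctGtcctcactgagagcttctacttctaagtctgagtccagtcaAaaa
Gm5963, from base 70: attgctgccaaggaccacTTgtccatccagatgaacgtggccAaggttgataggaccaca
Rps21, from base 154: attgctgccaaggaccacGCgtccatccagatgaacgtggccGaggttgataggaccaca

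Each pair differs at 3 of the 60 positions. Sema3d was at 65.7 to 75.4 CPM and Sema5b at 19.5 to 26.9 CPM in the deposited counts. These values cannot be told apart from those of the pseudogenes, and no level of the semaphorins themselves is read from them. Sema3d gave a log2 fold change of -0.05 ± 0.04 between the cell types in untreated cultures and Sema5b gave -0.11 ± 0.06, and neither passed. In all, 9 members, 8 of them tested, had an overlapping gene with at least 50% of their count. Besides those named, they were Plxna1 (97.9% with the antisense gene Gm26811), Sema3a (87.4% with Gm42676) and Plxnc1 (100% with Gm48718). With all 9 set aside, 29 tested members remained. Of these, 12 (41.4%) were called in untreated cultures, beside 32.1% of all genes. With N1-AcSpd 8 (27.6%) were called, beside 33.3% of all genes.

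**Figure D3:**
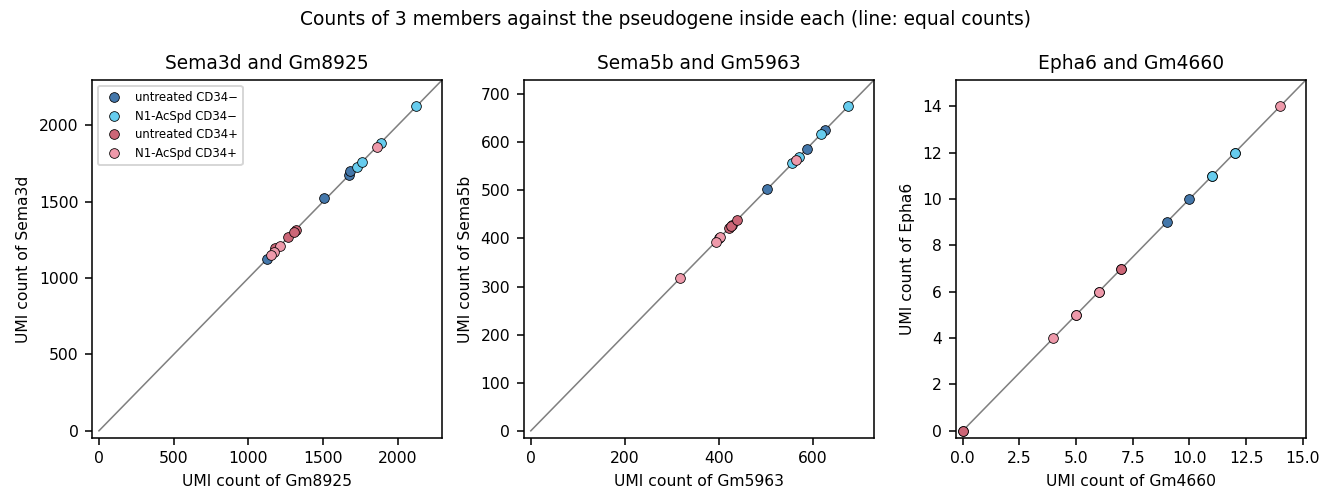
UMI count of Sema3d, Sema5b and Epha6 in each of the 16 libraries (y axis) against that of the pseudogene within each gene (x axis), coloured by group, with a line at equal counts. All points lie on or next to the line, with equal counts in 12, 15 and 16 of 16 libraries.

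The second question was whether N1-AcSpd changed these genes. In progenitors, none of the 37 members passed (edgeR, main fit without the mouse as a block), against 0.614% of all genes. An unadjusted p under 0.05 was reached by 3 members, where 13.6% of all genes reached it, and DESeq2 called 0 of the members, 17 of which it gave no adjusted p, and 2.93% of all genes. In HFSCs, none passed either, against 0.325% of all genes. There, 5 members had an unadjusted p under 0.05, where 13.2% of all genes did, and DESeq2 called 0 members, 31 of which it gave no adjusted p, and 2.26% of all genes. With the mouse as a block, edgeR called 349 genes in progenitors against 117 without it, and 152 against 62 in HFSCs. Of the members, the block then called Ephb6 in progenitors and none in HFSCs. Comparisons of cell type and treatment share libraries, so their values are given side by side and not as support for each other.

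**Figure D4:**
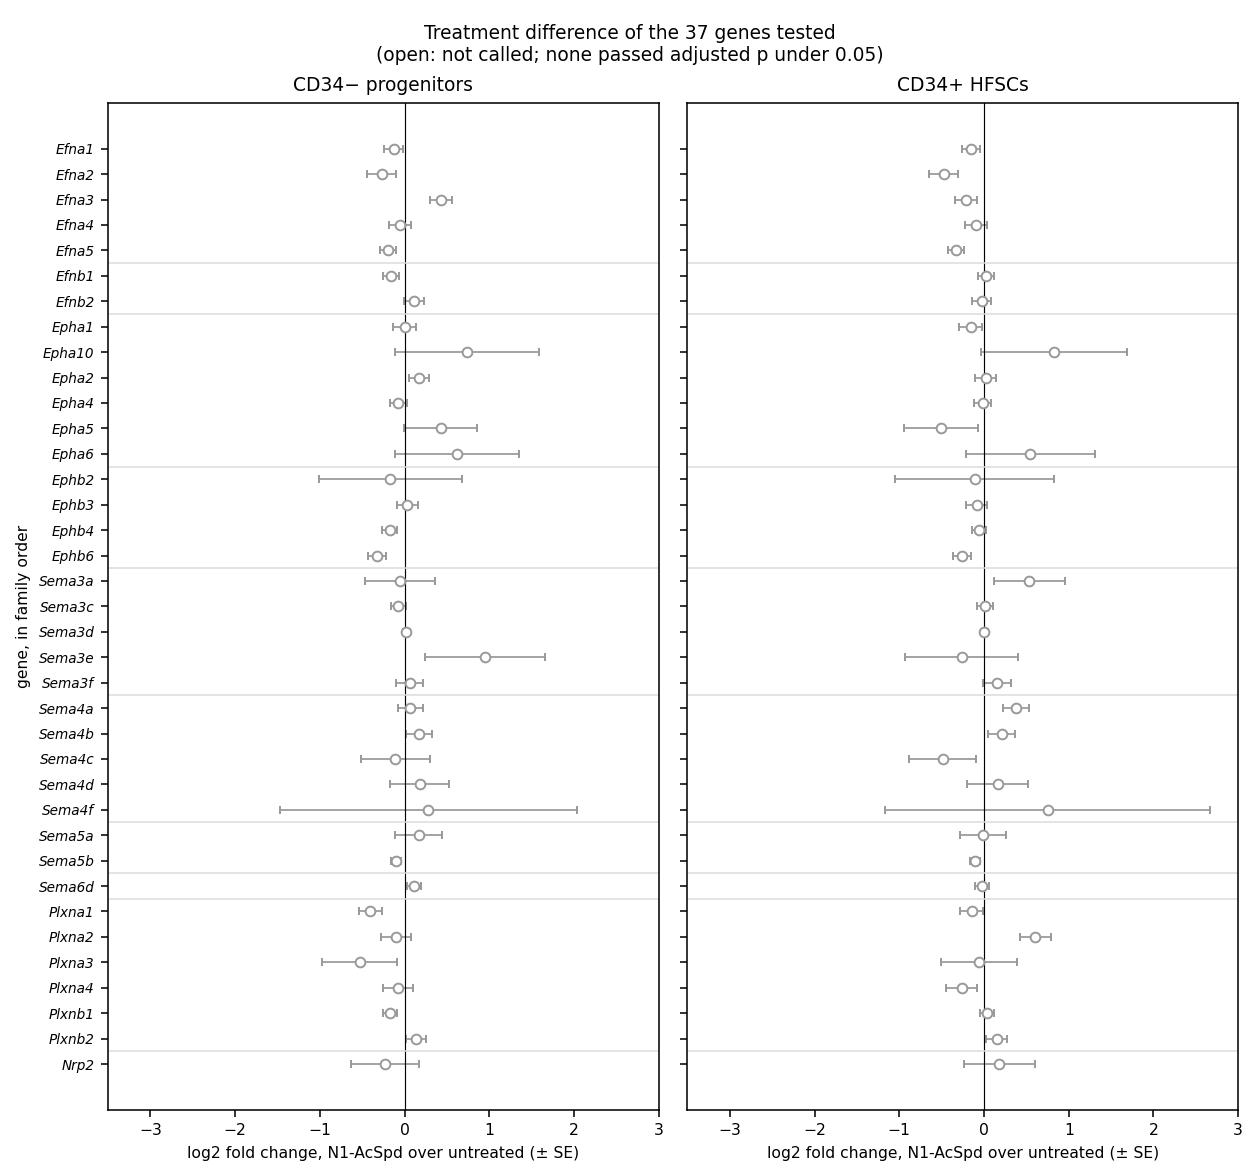
Treatment difference of the 37 members tested. Each point is the log2 fold change of N1-AcSpd over untreated cultures with its SE, in CD34− progenitors on the left and CD34+ HFSCs on the right. All points are open, since none passed an adjusted p of 0.05, and the widest bars are those of Sema4f, which was at 0 in 10 of 16 libraries.

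With both cell types averaged, 2 of 37 members passed, where 4.86% of all genes did. Both were lower after N1-AcSpd, where 2.16% of all genes were called lower. Ephb6 gave a log2 fold change of -0.29 ± 0.07 (adjusted p = 0.0377) and was lower in 8 of 8 pairs of libraries of the same mouse. Its progenitor values with N1-AcSpd, 8.855 to 11.8 CPM, lay below all the untreated values of 12.5 to 15.65 CPM, while in HFSCs the ranges of 21.0 to 27.3 and 26.2 to 31.5 CPM overlapped. Efna5, a ligand that binds EphA receptors, gave -0.26 ± 0.07 (adjusted p = 0.0381), also lower in 8 of 8 pairs. The progenitor and HFSC libraries of a mouse were sorted from the same cultures, so the 8 pairs rest on 4 mice. The main fit took all 16 libraries as independent. DESeq2 called both genes (adjusted p = 0.00501 for Ephb6 and 0.0409 for Efna5), as did edgeR with the mouse as a block (adjusted p = 0.00567 and 0.0146).

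In the main fit, which has no mouse block, the Ephb6 and Efna5 calls stood near the threshold. The fits that left out a library or a mouse had no block either. The Ephb6 call was lost in 16 of the 20 fits that left out a library or a mouse (adjusted p 0.051 to 0.148) and held without N1-AcSpd progenitor library 1, untreated HFSC library 2 or 3, or N1-AcSpd HFSC library 4. The Efna5 call was lost in 15 of them (adjusted p 0.0504 to 0.16) and held without untreated progenitor library 1 or 2, N1-AcSpd progenitor library 4, untreated HFSC library 3, or N1-AcSpd HFSC library 4. In progenitors alone, Ephb6 gave -0.33 ± 0.11 (adjusted p = 0.179) and passed with the mouse as a block (adjusted p = 0.0344).

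By the smallest p within a cell type, Efna3 and Plxna2 had the strongest upward and Ephb6 and Efna5 the strongest downward differences. Efna3, an ephrin-A ligand, was at 2.75, 3.32, 3.07 and 3.47 CPM in untreated progenitors and at 4.25, 4.58, 4.03 and 4.18 CPM with N1-AcSpd, which did not overlap (log2 0.43 ± 0.13, adjusted p = 0.151). In HFSCs it was at 5.004, 5.26, 3.685 and 5.855 CPM untreated and 4.64, 4.21, 3.50 and 4.70 CPM with N1-AcSpd, with a log2 fold change of -0.22 ± 0.13 (adjusted p = 0.525). With N1-AcSpd the values were higher in 4 of 4 mice in progenitors and lower in 4 of 4 in HFSCs. Epha2 in progenitors also had every N1-AcSpd library above every untreated one, at a smaller difference (log2 0.17 ± 0.12, adjusted p = 0.6). Efna2 in HFSCs did not overlap either, at 1.42 to 1.70 CPM untreated and 0.965 to 1.25 CPM with N1-AcSpd, lower in 4 of 4 mice (log2 -0.48 ± 0.17, adjusted p = 0.259). Epha2 and Efna2 are given only for this separation and not for a smallest p. The share of all genes whose treated and untreated libraries separate in this way was not counted. Separations within a cell type are therefore description only.

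Efna5 in HFSCs was at 6.88, 6.52, 5.91 and 7.65 CPM untreated and at 5.53, 5.29, 4.78 and 5.75 CPM with N1-AcSpd, without overlap (log2 -0.34 ± 0.09, adjusted p = 0.167). In progenitors it was at 4.56, 4.53, 5.19 and 5.50 CPM and at 4.125, 3.94, 4.48 and 4.76 CPM, with overlapping ranges. Plxna2 in HFSCs was at 1.365, 2.14, 2.11 and 2.77 CPM untreated and at 2.56, 3.64, 3.86 and 2.76 CPM with N1-AcSpd, higher in 3 of 4 mice (log2 0.61 ± 0.18, adjusted p = 0.179). In progenitors Plxna2 was at 3.01, 2.81, 2.99 and 3.52 CPM untreated and at 2.93, 2.84, 2.81 and 2.91 CPM with N1-AcSpd. The low untreated HFSC value of mouse 1 rested on 24 UMIs.

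Whether the cell type difference itself changed with N1-AcSpd was tested as an interaction. No member passed and 0% of all genes did (edgeR). An unadjusted p under 0.05 was reached by 2 members, where 4.19% of all genes reached it, and DESeq2 called 0 members and 0.373% of all genes. The 2 members were Efna3, with a difference of log2 fold changes of -0.65 ± 0.19, and Plxna2, with 0.71 ± 0.25 (adjusted p = 1 for both). For Efna1, Epha2, Epha4, Ephb4 and Ephb6 the interaction lay between -0.15 and 0.11, with 95% intervals of -0.32 to 0.28 for Efna1 and -0.23 to 0.35 for Ephb6.

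Genes that act with these families were described from 4 lists. Of 31 tested effectors of Eph receptors and ephrins, 7 passed in untreated cultures (3 higher and 4 lower in HFSCs, median log2 0.08 against 0.02 over all genes) and 7 in N1-AcSpd cultures (5 higher, 2 lower). Of 35 tested plexin and semaphorin effectors and coreceptors, 8 passed in untreated (5 higher, 3 lower) and 12 in N1-AcSpd cultures (8 higher, 4 lower). Of 5 tested VEGF ligands and receptors, which share neuropilins with the semaphorins, Vegfb and Vegfd were higher in HFSCs in both conditions. Of 16 tested Slit, Robo, netrin, Unc5, repulsive guidance molecule and Flrt genes, 5 passed in untreated (3 higher, 2 lower) and 4 in N1-AcSpd cultures (3 higher, 1 lower). These shares stand beside the 32.1% and 33.3% of all genes given above. Some of these genes overlap a gene that has at least 50% of their count. Among the called ones these were Abl1, Chn2 and Inppl1 of the Eph list, Mical1, Nrcam and Itga1 of the plexin list, and Flrt1 and Unc5d. With such genes set aside, 4 of 24 Eph effectors passed in untreated cultures (1 higher, 3 lower) and 6 of 24 with N1-AcSpd (4 higher, 2 lower). In the plexin list 6 of 23 (4 higher, 2 lower) and 9 of 23 (6 higher, 3 lower) then passed, and in the last list 3 of 9 in each (2 higher, 1 lower).

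Farp1, a guanine nucleotide exchange factor that binds class A plexins, was at 1.65 to 2.49 CPM in untreated progenitors and 3.79 to 6.63 CPM in HFSCs (log2 1.31 ± 0.20, adjusted p = 0.000252). It gave 1.12 ± 0.20 with N1-AcSpd (adjusted p = 0.000646). Robo2, a receptor for Slit ligands, was at 1.02 to 1.95 CPM in untreated progenitors and 3.02 to 4.71 CPM in HFSCs (log2 1.30 ± 0.22, adjusted p = 0.000503), and gave 1.54 ± 0.22 with N1-AcSpd (adjusted p = 0.000123). HFSC libraries were above progenitor libraries for both genes in both conditions, and the calls held in all 20 fits.

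For N1-AcSpd in the average of both cell types, 4 of the 86 list genes tested passed, or 4.65%, beside 4.86% of all genes, and all 4 were lower. Flrt2, a ligand of Unc5 receptors, fell most clearly, from 21.9 to 22.7 CPM in untreated progenitors to 16.3 to 18.2 CPM, and from 11.8 to 13.9 CPM in untreated HFSCs to 8.89 to 12 CPM (log2 -0.37 ± 0.06, adjusted p = 0.00556). Gipc1, an adaptor that binds plexins and neuropilin-1, gave -0.20 ± 0.04 (adjusted p = 0.0219). Arhgef12, a guanine nucleotide exchange factor bound by class B plexins, gave -0.28 ± 0.07 (adjusted p = 0.0303), and Sipa1l1, a regulator of Rap that acts downstream of EphA4, gave -0.25 ± 0.06 (adjusted p = 0.0352). Leaving out mouse 1, 3 or 4 ended the call of Flrt2 (adjusted p 0.0553 to 0.0619), and leaving out mouse 1, 2 or 4 that of Gipc1 (adjusted p 0.0757 to 0.125). No list gene named here overlapped a gene with at least 50% of its count. Of the 20 fits, 11 lost Arhgef12 (adjusted p 0.0512 to 0.194) and 15 lost Sipa1l1 (adjusted p 0.0501 to 0.326). Within a cell type, 0 of the 86 list genes passed. DESeq2 called Flrt2 in progenitors (adjusted p = 0.000766) and HFSCs (0.00637), and Gipc1 in HFSCs (0.0358). With the mouse as a block, edgeR called Flrt2 in progenitors (0.0336) and HFSCs (0.0470), and Gipc1 in HFSCs (0.0451).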

How the data were processed

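Sorted cells of 4 mice were sequenced as 16 libraries. The authors demultiplexed with FLEXBAR, mapped with kallisto (0.45.0, per the labels), assigned reads to mm10 genes with BEDTools and deposited unique UMI tag counts per gene, a table of whole-number counts. The annotation release and the strand setting are not given in the sources used here. All cDNA was pooled after reverse transcription. Empty cells were read as 0. Each count was tested with edgeR 4.0.16 (R 4.3.3, glmQLFit and glmQLFTest, TMM) in 1 fit of the 16 libraries, over the 19049 genes whose mean count reached 5, with Benjamini-Hochberg adjustment, after the steps were tested on simulated data. Intervals are 95%, as 1.96 SE. Same-numbered libraries come from the same mouse per the labels, and the main fit did not use this pairing. Deviations of same-mouse libraries correlated at a mean r of 0.033 (-0.112 to 0.148, 24 pairs). A mouse block still raised the number of genes called for treatment, as given below. DESeq2 1.42.0, other scalings and filters, thinning, a mouse block, and fits without each library or mouse were alternatives. Libraries of a group differed beyond sampling noise.

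The members and gene lists were chosen with earlier results of these data known. Values in every library are given for members with a mean count of at least 50 that were called in both cell type comparisons with the same sign in 4 of 4 mice and an absolute log2 fold change of at least 0.5, for those called in a treatment comparison, and, where none was called, for the smallest p in each direction. List genes needed an absolute log2 fold change of at least 1 in both cell type comparisons, or a call for treatment. Cell identity was read from marker lists of HFSCs, epidermal differentiation, melanocytes, fibroblasts, endothelium, immune cells, Schwann cells and neurons, and Merkel cells. Pseudogenes were aligned to GENCODE vM21 transcripts with blastn 2.17.0.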

Additional observations from a re-analysis of the deposited data

Results flagged for a closer look

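For the members given in every library, 32 groups of 4 libraries were examined for a library far from the others, and 2 were marked. Chance marks about 1 in 20 such groups. Ephb4 in N1-AcSpd HFSCs was highest in mouse 1 at 11.40 CPM, while the other three lay between 10.04 and 10.1 CPM. Ephb6 in untreated progenitors was highest in mouse 4 at 15.65 CPM, while the other three lay between 12.5 and 13.0 CPM. The cell type calls of both genes held without these libraries.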

How the results depend on the processing

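No recomputed value changed direction. For 36 called gene-level values, 844 results under other settings kept the call and 156 lost it. For 6 values that were given without a call, 163 results stayed without one and 1 gained it. Leaving out 1 library or mouse gave 10 to 15 called members for the untreated cell type difference, 8 to 12 with N1-AcSpd, 0 to 2 for the averaged treatment, and 0 to 0 for the treatment within each cell type and for the interaction. With the replicate block (mouse), the count for treatment in progenitors went from 0 to 1, which was Ephb6. The averaged treatment count of 2 went to 0 without a low-count filter and to 1 with libraries thinned to the smallest total. Apart from Sema4c, Sema4b, Plxnb1 and Ephb6, given above, the block changed no member's call.

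Over all genes, calls for treatment in progenitors, in HFSCs and on average numbered 117, 62 and 925. The block gave 349, 152 and 1551, DESeq2 gave 558, 431 and 1546, no low-count filter gave 35, 35 and 445, and thinning gave 63, 40 and 723. Fitting only the groups compared gave 0 in progenitors (2645 at an unadjusted p under 0.05) and 23 in HFSCs, and could not be applied to the average or the interaction. DESeq2 called 71 genes for the interaction and edgeR 0. Leaving out a library or mouse gave 4 to 157, 3 to 73, 175 to 1062 and, for the interaction, 0 to 11 genes.

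Scaling by library totals moved the median log2 cell type difference of all genes from 0.02 to 0.14 in untreated and from -0.01 to 0.11 in N1-AcSpd cultures. It turned 3059 higher and 3064 lower genes in untreated cultures into 4861 and 1762, and the members into 11 higher and 3 lower. Under it Efnb1, Plxna2 and, with N1-AcSpd, Sema3c lost their calls at -0.16, -0.44 and -0.18, while Plxnb1 in untreated and Efnb2 in N1-AcSpd cultures gained one. The cause of these changes was not tested. Members below a mean of 5 UMIs a library were not tested.

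Of the remaining settings, DESeq2 ended the calls of Sema4c (adjusted p = 0.0989) and, with N1-AcSpd, Efna5 (0.0525), and called Plxnb2 in untreated cultures (0.0492). No low-count filter ended those of Efnb1 (0.0597) and Sema4c (0.0952). Fitting only the groups compared ended those of Plxna2 (0.0793), Sema4c (0.1145) and, with N1-AcSpd, Efna2 (0.0551) and Sema3c (0.0538). It called Plxnb2 in N1-AcSpd cultures (log2 -0.26, adjusted p = 0.0408). Thinning ended those of Efnb2 (0.1815), Plxna2 (0.0624) and, with N1-AcSpd, Efna2 (0.112) and Epha1 (0.0514). Of the averaged treatment calls, no low-count filter ended those of Ephb6 (0.0642), Efna5 (0.0661), Arhgef12 (0.05265) and Sipa1l1 (0.0807), thinning those of Ephb6 (0.0592), Gipc1 (0.0766) and Sipa1l1 (0.176), and DESeq2 that of Sipa1l1 (0.0537).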
